A study of Mus musculus with 6 samples.

Results

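A set of 7 nuclear genes of the mitochondrial respiratory chain on mouse chromosome 1 were followed in the embryonic retina. They encode subunits of complexes I and IV (Ndufs1, Ndufb3, Ndufa10 and Cox5b), assembly factors of complexes III and IV (Bcs1l and Cox20) and the coenzyme Q binding protein Coq10b. The members were taken by gene symbol, and each of the 7 had 1 row among the 1140 complete rows used. All 7 were among the 646 rows the authors had tested. Retinas of E15.5 embryos from C57BL/6 mice were compared between 2 genotypes, with 3 libraries of total RNA per genotype and 8 retinas pooled in each library. The control mice were T2fx/+ (the Tbr2fx allele), which the submitters name wild type, and the other mice were T2Isl1/+, with Isl1 knocked in at the Tbr2 locus. Both labels give heterozygous animals, and they do not say whether pools shared litters. The authors combined the libraries into 1 value per gene and genotype, read here as FPKM (fragments per kilobase, scaled to sequencing depth) from the tool the submitters name, so no error over replicates can be given and library depth is unknown.

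The respiratory chain passes electrons from NADH and succinate through complexes I and II to coenzyme Q, then through complex III and cytochrome c to complex IV, where oxygen is reduced. Most of its subunits are encoded in the nucleus and imported, a core set is encoded by mitochondrial DNA, and assembly factors join both kinds into working complexes. Mature photoreceptors and ganglion cells depend heavily on this pathway, and mutations in complex I genes of the mitochondrial genome cause an inherited optic neuropathy of ganglion cells. The comparison asks how far these transcripts differed when Isl1, a LIM-homeodomain factor of developing ganglion cells, was expressed from the locus of Tbr2, a T-box factor made by some of those cells.

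The respiratory chain genes had similar values in the 2 genotypes. In the authors' deposited table, 0 of the 7 members were called at a q-value under 0.05, against 1.55% of the 646 tested rows (0.155% higher and 1.39% lower), and 0 had an unadjusted p-value under 0.05, against 3.72%. With so few calls on the chromosome, a count of 0 among 7 genes lies near the background and does not show that the genes were equal. The knock-in value was above control for 6 members and below it for Bcs1l alone, although Cox20 moved to the lower side (-0.00025 on the log2 scale) once the median of all tested rows was subtracted. Over all tested rows 54.6% were above control. The members' log2 fold changes ran from -0.11 to 0.18 with a median of 0.10, beside a median of 0.01 over all tested rows. The members' median was smaller in some other readings. It was 0.015 relative to genes of like transcript length, 0.062 without Cox5b and 0.022 without the 4 members that have close copies elsewhere in the genome. Without Bcs1l the median was 0.11, and without Cox20 and Ndufs1 it stayed at 0.10. All 7 had the same q-value in the authors' deposited table, 0.9997.

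**Figure D1:**
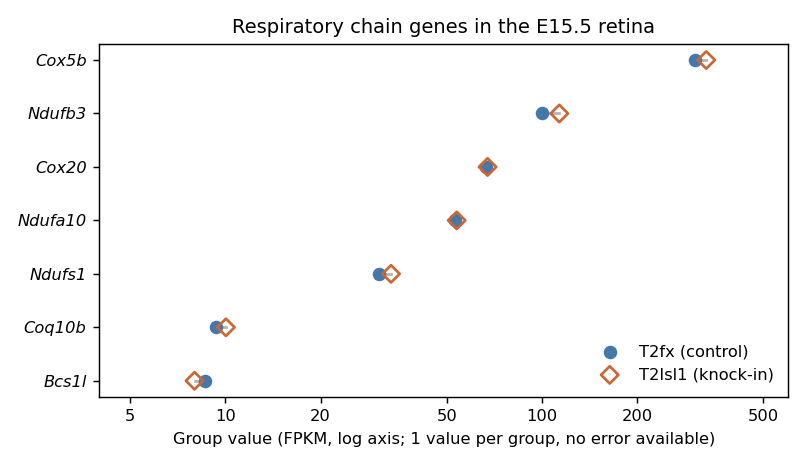
Group values of the 7 respiratory chain genes in FPKM on a log axis, with filled circles for T2fx and open diamonds for T2Isl1, 1 value per genotype and no error bars because none can be computed. The genes span from 8.61 FPKM (Bcs1l) to 303 FPKM (Cox5b) in control, and within each gene the 2 genotypes lie close together.

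Levels differed far more between the genes than between the genotypes. On the FPKM scale, which is per length, Cox5b was 35.2 times as high as Bcs1l in control retinas and 41.3 times as high in knock-in retinas. The order was the same in both genotypes, from Cox5b through Ndufb3, Cox20, Ndufa10, Ndufs1 and Coq10b to Bcs1l. The narrowest step in control was from Coq10b to Bcs1l, with a ratio of 1.09 (1.26 in the knock-in), and in the knock-in it was from Cox20 to Ndufa10, with a ratio of 1.25 (1.26 in control). The widest step was from Ndufs1 to Coq10b, with ratios of 3.27 and 3.32. Whether neighbours in this order differ beyond the spread of libraries cannot be told from single group values. Cox5b alone made up 53.1% of the members' summed FPKM in control and 53.6% in knock-in retinas.

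Of the members, 3 encode complex I, the NADH dehydrogenase at the entry of the chain. Ndufs1 (ENSMUSG00000025968.16, minus strand, 63143596 to 63176833 of chromosome 1 in mm10, by GENCODE M21) encodes the largest core subunit, which carries iron-sulfur clusters in the peripheral arm. The authors' deposited table lists it at 30.6 FPKM for T2fx and 33.4 FPKM for T2Isl1 (log2 fold change 0.13, unadjusted p 0.279). Ndufb3 (ENSMUSG00000026032.8, plus strand, 58586384 to 58595964) encodes a small accessory subunit of the membrane arm. It had the widest difference of the 7 members on the log2 scale, and the authors' deposited table lists it at 99.998 FPKM for T2fx and 113 FPKM for T2Isl1 (log2 fold change 0.18, unadjusted p 0.152). Ndufa10 (ENSMUSG00000026260.12, minus strand, 92439010 to 92473860) encodes another accessory subunit, which faces the mitochondrial matrix. Its 2 values in the authors' deposited table were nearly equal, at 53.0 FPKM for T2fx and 53.8 FPKM for T2Isl1 (log2 fold change 0.02, unadjusted p 0.852). Each of the 3 knock-in values was the higher, none of the 3 differences passed the authors' test, and whether the 3 differ in size was not tested. Summed, these genes came to 184 FPKM for T2fx and 201 FPKM for T2Isl1.

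Cox5b, a nuclear-encoded zinc-binding subunit of complex IV (cytochrome c oxidase), was the most abundant member. Its group values in the authors' deposited table were 303 FPKM for T2fx and 330.1 FPKM for T2Isl1 (log2 fold change 0.12, unadjusted p 0.274). That placed it 8th among the 646 tested rows in control and 7th in the knock-in. The gene (ENSMUSG00000061518.11) lies on the plus strand at 36691449 to 36693681, and its longest coding transcript has 4 exons and 865 bases. The bases just before its first annotated start are shown because this is the promoter of the member with the highest level. They are chr1:36691237-36691448 (mm10, plus strand, RefSeq promoter window), and capitals mark TGCGCA, the core of the site bound by NRF1, a textbook activator of respiratory chain genes.
Cox5b: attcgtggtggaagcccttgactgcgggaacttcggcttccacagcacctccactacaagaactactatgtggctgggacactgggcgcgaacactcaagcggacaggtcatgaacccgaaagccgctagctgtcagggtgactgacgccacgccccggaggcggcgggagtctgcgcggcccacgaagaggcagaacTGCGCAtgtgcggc
The match begins 14 bases before that start, and it is a match of letters with no measure of binding in these data. In windows of 300 bases around annotated starts, TGCGCA was present in 7.76% of 32851 RefSeq promoters, and among the 6 members with a window only Cox5b held it.

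Cox20 (ENSMUSG00000026500.6, plus strand, 178319130 to 178322693) encodes an assembly factor that chaperones the mitochondrially encoded subunit Cox2 on its way into complex IV. By the authors' deposited table it stood at 66.7 FPKM for T2fx and 67.3 FPKM for T2Isl1 (log2 fold change 0.01, unadjusted p 0.99). Cox20 was thus the member with the smallest listed difference. The listed span of the row, 178309624 to 178339131, has 29508 bases where the annotated gene has 3564. Genes can share 1 listed span and have separate values, as Ndufs1 and Ino80dos do, so the span does not show which reads were counted for Cox20. The value is uncertain because of an overlapping gene. Hnrnpu, on the opposite strand at 178321108 to 178337797, shares 1586 bases of the Cox20 gene, and 1 of its transcripts matches 214 of the 471 bases of the coding Cox20 transcript without a break. The sources used here do not say whether reads were counted by strand, and without that reads from the 2 genes cannot be told apart. Hnrnpu itself was not analysed here.

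Bcs1l and Coq10b, the members with the lowest levels, lay on opposite sides of their control values. Bcs1l (ENSMUSG00000026172.12, plus strand, 74588289 to 74592443) encodes a mitochondrial AAA ATPase that inserts the Rieske iron-sulfur protein into complex III. The authors' deposited table puts it at 8.61 FPKM for T2fx and 8.00 FPKM for T2Isl1 (log2 fold change -0.11, unadjusted p 0.515). Coq10b (ENSMUSG00000025981.13, plus strand, 55052770 to 55072702) encodes a lipid-binding protein needed for coenzyme Q to work in the chain. For this gene the authors' deposited table has 9.36 FPKM for T2fx and 10.05 FPKM for T2Isl1 (log2 fold change 0.10, unadjusted p 0.561). Both genes nevertheless stood near the middle of the chromosome, above 43.5% and 45.5% of tested rows in control.

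**Figure D2:**
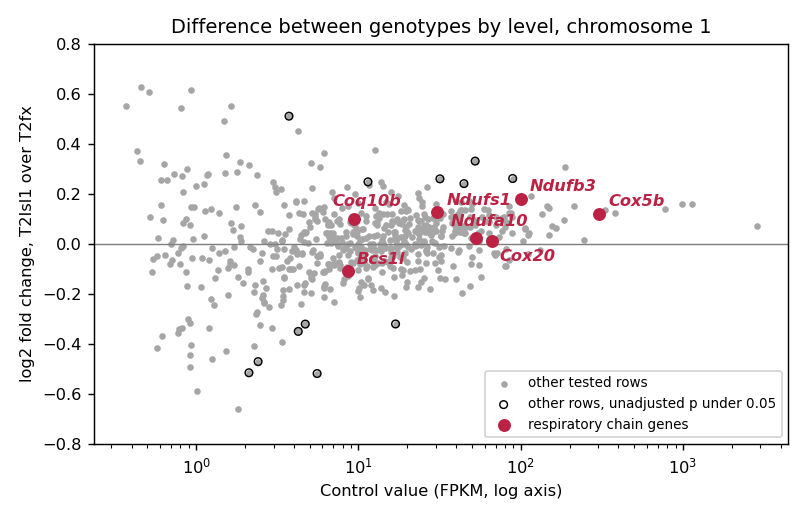
Log2 fold change of T2Isl1 over T2fx against the control value in FPKM (log axis) for tested rows of chromosome 1, with the 7 respiratory chain genes in red, other rows in grey and other rows with an unadjusted p-value under 0.05 ringed. The vertical axis ends at 0.8 in each direction, which leaves 16 rows out of view, and all 7 members lie within the grey band, between -0.11 and 0.18.

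How small a difference the authors' test could mark at these levels can be read only roughly from other rows. Those rows were matched on FPKM and not on transcript length, although the number of reads at a given FPKM depends on length. Among 197 other tested rows within 2-fold of the control value of Ndufs1, 5 had an unadjusted p-value under 0.05, and the smallest difference among those was that of Mob4, 1.18-fold. Ndufs1 differed by 1.09-fold, and 22.3% of those 197 rows differed by more. Around Ndufb3 there were 59 such rows, the smallest marked difference was the 1.20-fold of Tceb1, and 13.6% of the rows differed by more than the 1.13-fold of Ndufb3. Around Bcs1l and Coq10b the smallest marked difference was the 1.19-fold of Tmco1. These are the smallest marked differences, and larger ones at the same levels could go unmarked. Hspe1, within 2-fold of Ndufb3, differed by 1.24-fold with an unadjusted p of 0.156 in the authors' test. Within 2-fold of Bcs1l and Coq10b, 3110009E18Rik had a log2 fold change of 0.37 (unadjusted p 0.170), beside 0.25 for Tmco1. The longest transcripts of Mob4 and Tmco1 have 3555 and 3966 bases, against 2661 for Ndufs1, 1890 for Bcs1l and 2119 for Coq10b. The smallest difference that could be marked for these members may therefore be larger. The longest transcript of Ndufb3 has only 763 bases, and no length was at hand for Tceb1, so the 2 could not be compared in this way. Ndufa10 and Cox20 had small listed differences for their level, since 91.1% and 96.0% of rows at their levels differed by more than they did. This ranks the listed differences and not their precision. In the authors' test Cox20 had an unadjusted p of 0.99 at a log2 fold change of 0.013. Mapkapk2, at 55.5 FPKM in control, had 0.916 at 0.011. How firm the small difference of Cox20 is was not tested. Only 10 other rows lay within 2-fold of Cox5b, and the smallest marked difference there was the 10.2-fold of the crystallin Cryge, so for Cox5b this reading says little.

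The rest of the oxidative phosphorylation machinery was represented by 4 further genes, and none was called. A list of 158 symbols, older names included, for complexes I to V, their assembly factors, coenzyme Q synthesis and cytochrome c held 11 genes with a row, the 7 members among them. All 11 were tested by the authors. At a q-value under 0.05, 0 were called higher and 0 lower, against 1.55% of all tested rows in either direction. At an unadjusted p-value under 0.05 the count was also 0, against 3.72%. Counts of 0 among 11 genes lie near these shares. The knock-in value was above control for 9 and below for 2, beside 54.6% above control over all tested rows. The median log2 fold change of the 11 was 0.10. Tmem70, which helps assemble the ATP synthase (complex V), is listed with 23.4 FPKM for T2fx and 27.0 FPKM for T2Isl1 in the authors' deposited table (log2 fold change 0.20, unadjusted p 0.113). Fastkd2, a mitochondrial RNA-binding protein, is listed in the authors' deposited table at 6.88 and 7.95 FPKM (log2 fold change 0.21). These 2 genes thus differed by slightly more than any member. Coa5, an assembly factor of complex IV, is listed at 26.2 and 27.6 FPKM, and Sdhaf4, an assembly factor of complex II, at 22.4 and 20.8 FPKM, both from the authors' deposited table. Sdhaf4 and Bcs1l were the 2 genes of the list with a lower knock-in value, both with a log2 fold change of -0.11. No complex I assembly gene and no gene of a 19-symbol glycolysis list had a row.

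Other mitochondrial and metabolic genes had differences of the same order. Idh1, which encodes a cytosolic and peroxisomal isocitrate dehydrogenase, is listed at 156 and 164 FPKM for T2fx and T2Isl1 (log2 fold change 0.07, from the authors' deposited table). Mff, a receptor for the mitochondrial fission machinery, is listed at 73.7 and 75.2 FPKM, and the methionyl-tRNA synthetase gene Mars2 at 4.39 and 4.45 FPKM, from the authors' deposited table. For Mterf4, which takes part in assembling the mitochondrial ribosome, the values of the authors' deposited table were 5.71 and 6.31 FPKM. The 5 genes of mitochondrial ribosomal proteins with a row were all above control, with a median log2 fold change of 0.15 and a range of 0.09 to 0.33, and 0 were called at a q-value under 0.05. Among them Mrpl30 is listed in the authors' deposited table at 52.4 and 65.9 FPKM (unadjusted p 0.0348). The 3 genes of cytosolic ribosomal proteins, Rpl7, Rpl31 and Rpl37a, ran from 0.14 to 0.16 on the log2 scale, also with 0 called. Whether the respiratory chain genes differ from either group was not tested.

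Transcript length moved with the differences over the whole chromosome, and the members have short transcripts. With the 611 tested rows of known length ordered by their longest annotated transcript and divided into 5 groups, 6 members fell in the shortest group (79 to 2302 bases) and Ndufs1, with 2661 bases, in the next. Median log2 fold changes were 0.09 in the group of shortest transcripts and -0.08 in that of the longest. In each of the 2 shortest groups 71.3% of rows were above control. Relative to the median of its own length group, Ndufb3 had a difference of 0.09, Ndufs1 of 0.08, Cox5b of 0.03 and Coq10b of 0.02 on the log2 scale. On the same relative scale Ndufa10 stood at -0.06, Cox20 at -0.07 and Bcs1l at -0.19. Thus 4 members lay above and 3 below other genes of like length, with a median of 0.02 in place of 0.10. The part of transcript length in the members' differences was not tested.

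**Figure D3:**
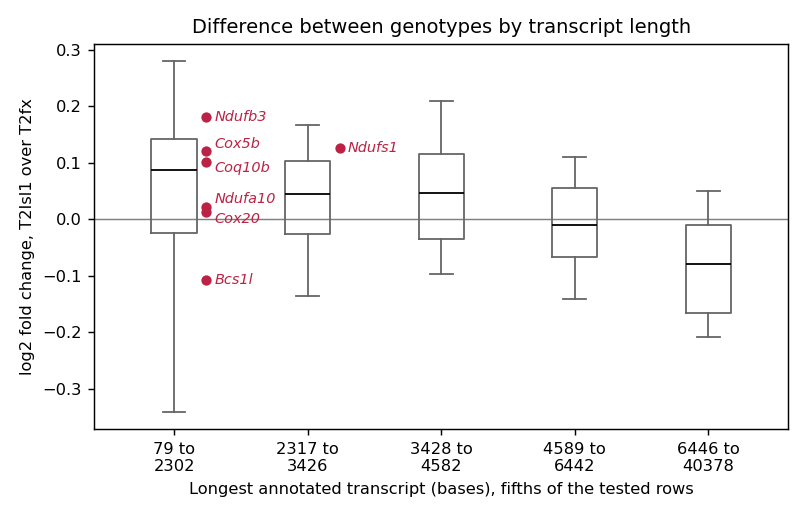
Log2 fold change of T2Isl1 over T2fx for tested rows in 5 groups of transcript length (bases), with boxes from the 25th to the 75th percentile, black lines at the median and whiskers at the 10th and 90th percentiles, and the 7 respiratory chain genes as red points beside their group. The medians go from 0.09 in the shortest to -0.08 in the longest group, and the members lie on both sides of their group's median.

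The summed level of the 7 members was 572 FPKM in T2fx and 616 FPKM in T2Isl1, a ratio of 1.08. That was 2.76% of all FPKM on the rows used in control and 2.96% in the knock-in. Lens genes took a different share of the 2 genotypes. The 7 tested genes of a 20-gene lens list were all called lower, their sum went from 1038 to 93.6 FPKM, and the remaining lens gene with a row, Lgsn, was listed at 0. The rows outside the lens list summed to 1.05 times their control value, and relative to them the members' ratio was 1.02. Muscle markers were low, at most 1.62 FPKM in control, while mesenchyme and vessel markers ran from 0.677 to 11.9 FPKM in control. Called lower were 1 of 3 tested muscle genes (Chrng) and 1 of 6 tested mesenchyme and vessel genes (Col3a1). All 3 of these muscle genes lay below control, as did 5 of the 6 mesenchyme and vessel genes, with Cd34 above. At an unadjusted p-value under 0.05 in the authors' test, 3 of those 6 were lower, Col3a1, Col5a2 (q-value 0.0588) and Twist2 (q-value 0.623). The 7 muscle genes with a row summed to 4.197 FPKM for T2fx and 1.44 FPKM for T2Isl1, with Chrnd listed at 0, and the 6 mesenchyme and vessel genes to 38.1 and 29.3 FPKM. Detection of retina markers cannot show that the pools held retina alone, since lens genes, at 1038 FPKM in control, were detected too. Of 22 retina markers 4 had a row, and all 4 were detected. Their values in T2fx and T2Isl1 by the authors' deposited table were 379.8 and 414 FPKM for Hes6, 68.0 and 66.2 FPKM for Fzd5, 31.3 and 30.2 FPKM for Klf7, and 16.9 and 13.6 FPKM for Tfap2b. Thus 1 lay above control and 3 below, with a median log2 fold change of -0.05, and 0 were called at a q-value under 0.05. Tfap2b, an amacrine cell factor, had an unadjusted p of 0.008 (log2 fold change -0.32, q-value 0.807). The part of other tissue in the members' values was not tested, and in bulk samples fewer cells of a type and less RNA per cell cannot be told apart.

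Of the members, 3 are transcribed away from a protein-coding neighbour that starts close by, and the values of a pair were not equally close in all 3. Ndufs1 and Eef1b2, a translation elongation factor gene on the plus strand at 63176825 to 63180486, have annotated gene ends that overlap, with outermost starts 8 bases apart. Their log2 fold changes were close, 0.13 for Ndufs1 and 0.15 for Eef1b2, although Eef1b2 stood 6.98 times as high as Ndufs1 in control, at 213 FPKM for T2fx and 237 FPKM for T2Isl1 by the authors' deposited table. Ndufb3 and Fam126b start 61 bases apart. Here the log2 fold changes were 0.18 and 0.01, and Fam126b is listed in the authors' deposited table at only 4.64 and 4.67 FPKM. In control Ndufb3 was 21.5 times as high as Fam126b. Bcs1l and the zinc finger gene Zfp142 start 43 bases apart, and both had lower knock-in values, with log2 fold changes of -0.11 and -0.20. Zfp142 is listed in the authors' deposited table at 5.12 and 4.47 FPKM. The 2 genes of a pair differed in log2 fold change by 0.02, 0.17 and 0.09 in that order, beside a median of 0.09 over the 44 such pairs with both genes tested on the chromosome and of 0.14 between consecutive tested rows. None of the 6 genes was called.

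**Figure D4:**
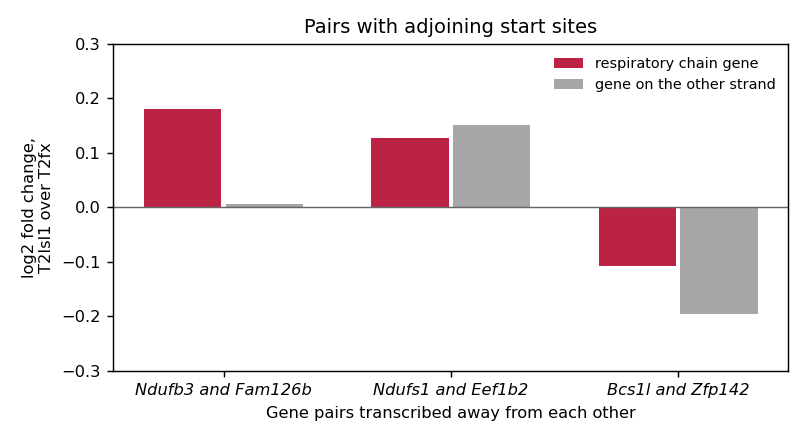
Log2 fold change of T2Isl1 over T2fx for 3 pairs of genes with adjoining starts on opposite strands, with the respiratory chain gene in red and its partner in grey, 1 group value per genotype and no error bars. The bars of Ndufs1 and Eef1b2 (0.13 and 0.15) and of Bcs1l and Zfp142 (-0.11 and -0.20) point the same way, while Fam126b (0.01) is near 0 beside Ndufb3 (0.18).

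The stretch between the starts is short enough to print for 2 of these pairs, and it is shown because both genes of a pair flank it. It holds the bases that neither GENCODE M21 nor RefSeq places inside a gene of the pair, and for Ndufb3 this is shorter than the distance between the GENCODE starts because RefSeq extends Fam126b further. That of Ndufb3 and Fam126b is chr1:58586334-58586383 and that of Bcs1l and Zfp142 is chr1:74588247-74588288 (mm10, plus strand, from RefSeq promoter windows, read 5′ to 3′ toward the respiratory chain gene). Capitals mark ATTGG, the reverse complement of the CCAAT box bound by NF-Y, in the first and GGGCGG, the GC box bound by Sp1, in the second.
Ndufb3: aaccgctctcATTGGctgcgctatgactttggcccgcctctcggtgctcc
Bcs1l: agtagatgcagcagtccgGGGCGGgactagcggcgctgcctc
The CCAAT box match lies 40 bases before the first start of Ndufb3, and the GC box match 24 bases before that of Bcs1l. Of 32851 promoter windows of 300 bases, 37.4% held CCAAT and 35.7% held GGGCGG on either strand, so both are common sequences.

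The 6 members with a promoter window had no searched motif in common. Beside TGCGCA in Cox5b, the ETS site CCGGAAGT bound by GABP was found in Bcs1l (3.89% of all windows), the YY1 site AAGATGGC in Cox20 (2.75%) and the CREB site TGACGTCA in Ndufa10 (1.79%), with each motif searched on both strands. CCAAT was found in Coq10b and Ndufb3, and GGGCGG in Bcs1l, Cox20 and Ndufa10. Each of the 6 windows held at least 1 of the 6 motifs, as did 64.3% of all windows. The member windows were GC-rich, with a median of 62.3% GC against 52.7% over all windows. No searched motif was present in every window of the members above control, and these matches were not related to the values by any test.

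Several members have close copies elsewhere in the genome, which bears on how firmly their FPKM can be read. Cox5b matches Gm11273, an intronless gene on chromosome 13 (21501029 to 21501418), over 390 bases with 99.2% identity, 45.1% of its longest coding transcript. Cox20 matches Cox20b, a processed pseudogene on chromosome 7 (100580267 to 100580619), over 355 bases with 97.2% identity. Ndufb3 matches the processed pseudogene Gm45930 on chromosome 12 (85187514 to 85187805) over 282 bases with 96.8% identity, and Coq10b matches the pseudogene Gm4899 on chromosome 8 (81197630 to 81198348) over 719 bases with 95.4% identity. The sources used here do not say how reads that fit both copies were shared out, so the values of these 4 genes are uncertain. The 3 members without such a copy, Ndufs1, Ndufa10 and Bcs1l, had log2 fold changes of 0.13, 0.02 and -0.11. The Ndufs1 row also spans the antisense gene Ino80dos, whose own row stands at 0.515 and 0.785 FPKM by the authors' deposited table.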

How the data were processed

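RNA of 6 retina libraries, 3 per genotype, was measured by sequencing. Per the submitters' processing notes, Cufflinks 2.1.1, TopHat2 2.1.1 and CASAVA were used with mm10, in no stated order. The gene annotation was not stated in the sources used. The authors' deposited table holds 1 value per gene and genotype, read as FPKM from the tool named and the layout, since the file header says only value. Library depth is unknown. The deposited log2 fold change is T2Isl1 over T2fx without a pseudocount, and the p-value and q-value are the authors' own, per the file headers. The deposited test statistic, a score, was not used. Only chromosome 1 was analysed, and 1 incomplete row was left out.

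Genes were called at a q-value under 0.05. No test was added, since only group values were at hand. Starts were converted to count from 1. GENCODE M21, of the same mm10 assembly, gave gene positions and transcript lengths (94.6% of tested rows), and RefSeq (GRCm38.p6) gave promoter windows from 250 bases before to 50 after the start, for 6 of 7 members. Printed stretches end before the first annotated start and leave out the partner gene. Copies were sought with blastn 2.17.0 in GENCODE transcripts and kept from 95% identity over 250 bases. Adjoining starts are those within 1000 bases. Tables were made with Python 3.11.15 and pandas 2.3.3, and the adjustment and length groups were tested on simulated data. The members, lists, motifs and alternatives were chosen with earlier results of these data known. Named genes are the members, the genes of the mitochondrial lists with a row, leading or called markers, neighbours of members and the 3 tested rows nearest to the members' median values. Rows named as the smallest marked difference and ribosomal protein genes were added after the values were seen. Alternatives changed the threshold, pseudocount, centring, filter on low values and members included.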

Additional observations from a re-analysis of the deposited data

How the results depend on the processing

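At q-value thresholds of 0.10 and 0.20, at an unadjusted p-value under 0.05, and with Benjamini-Hochberg adjustment over the tested rows alone, 0 members and 0 genes of the oxidative phosphorylation list were called. Over all tested rows 10 were called at a q-value under 0.05, and 3 at that threshold without the lens genes. At an unadjusted p-value under 0.05 in the authors' test, 24 of all tested rows were called. The members' median log2 fold change of 0.10 became 0.092 with a pseudocount of 1, 0.089 after subtracting the median of all tested rows, 0.015 relative to genes of like transcript length, 0.062 without Cox5b, 0.11 without Bcs1l and 0.022 without the 4 members with close copies. It was 0.10 without Cox20 and Ndufs1. The difference of Cox20 changed sign to -0.00025 after subtracting the median of all rows, and relative to genes of like length it was -0.074 for Cox20 and -0.064 for Ndufa10. The ratio of the members' sums was 1.07 without Cox5b and 1.02 relative to the rows outside the lens list. The median of the oxidative phosphorylation list was 0.10 with floors of 1 and 5 FPKM and 0.14 over the 4 genes that are no members. In each case the cause was not tested. The settings without named genes, without close copies or without the lens list were chosen after seeing the data.

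No paired analysis was possible because the values used are 1 combined value per genotype, although the labels number the 3 libraries of each. For the same reason the fits without each library in turn were not run.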

Other observations

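The rows on either side of each respiratory chain gene had no call. Of 14 such neighbours 11 were tested, with 0 at a q-value under 0.05 and 0 at an unadjusted p-value under 0.05 in the authors' deposited table, and 7 lay above control. Log2 fold changes of these 11 ran from -0.16 for the histone deacetylase gene Hdac4, 259149 bases from Ndufa10, to 0.31 for Hspe1, beside Coq10b. Where several genes share 1 listed span, only 1 of them was taken, so this range depends on that choice. Beside Bcs1l, Rqcd1 (0.05) was taken, and Plcd4 (-0.49), Usp37 (-0.03) and Zfp142 (-0.20) share its span. Stk36 (-0.06), on the other side, shares its span with Rnf25 (0.10), and Hspe1 shares its span with Hspd1 (0.14). Hspe1, the mitochondrial co-chaperonin, is listed in the authors' deposited table at 189 and 234 FPKM (unadjusted p 0.156). Actr1b, a dynactin gene beside Cox5b, is listed in the authors' deposited table at 59.6 and 65.7 FPKM (log2 fold change 0.14, beside 0.12 for Cox5b). The splicing factor gene Sf3b1, on the other side of Coq10b, is listed at 55.0 and 54.1 FPKM (the authors' deposited table). The 3 neighbours that were not tested, Gm20257, Olfr1416 and Fam178b, had at most 0.199 FPKM.

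The tested rows nearest to the members' median point (53.0 and 53.8 FPKM), by distance of the 2 group values on the log2 scale, were Itm2c with 52.1 and 54.9 FPKM, Psmd1 with 51.7 and 52.6 FPKM and Smap1 with 51.7 and 55.2 FPKM in the authors' deposited table. This likeness rests on 2 values per gene.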
